A study of Mus musculus with 4 samples.

Results

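Sites at which both H3K9me3 and H3K4me3 were called, and which lay away from genes, were described in mouse macrophages. A site was an H3K9me3 peak on chromosomes 1 to 19 or X that lay more than 5 kb from every end of a protein-coding gene and shared at least 1 bp with an H3K4me3 peak of the same treatment. There were 2281 such sites in the LPS library and 1589 in the PBS library, 3870 in all, out of 36450 H3K9me3 peaks on these chromosomes. The sites were chosen by the peak lists themselves (the positions of H3K9me3 and H3K4me3 peaks and the distance to gene ends), so their number and the overlap are a description.

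The cells were macrophages that thioglycollate had drawn into the peritoneum of C57BL/6 mice aged 8 weeks, kept after adherence for 24 h with LPS (lipopolysaccharide, the bacterial ligand of Toll-like receptor 4) or with PBS as the control. Chromatin was immunoprecipitated with an antibody to H3K4me3 (abcam ab8580) or to H3K9me3 (abcam ab8898) and sequenced. The 4 groups, H3K9me3 LPS, H3K9me3 PBS, H3K4me3 LPS and H3K4me3 PBS, held 1 library each. No difference between LPS and PBS therefore has a replicate check, and each one compares these libraries and not the conditions. The libraries held 26748289 to 29681491 tags after the filter of the caller, a tag being 1 aligned read. The fragment length given by the caller was 71 bp (LPS) and 66 bp (PBS) for H3K9me3. For H3K4me3 it was 149 bp (LPS) and 142 bp (PBS), and the part of this difference in the results was not tested. Peaks held 1.61% (LPS) and 1.67% (PBS) of the H3K9me3 tags, and 14.0% (LPS) and 17.8% (PBS) of the H3K4me3 tags. As a check of the labelled cell type, all 12 listed macrophage genes, such as Spi1 and Csf1r, had an H3K4me3 peak within 1 kb of a gene end in both treatments. The same held for 2 (LPS) and 3 (PBS) of 8 T cell genes, 2 and 2 of 6 B cell genes, 3 and 1 of 7 neutrophil genes, and 2 and 6 of 8 mesothelial and fibroblast genes, and their part in the results was not tested.

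H3K4me3 is laid down at promoters, above all at those rich in CG dinucleotides, and marks chromatin in which transcription can start. H3K9me3 is bound by HP1 proteins and marks heterochromatin, where it silences satellite repeats, retroelements and clusters of repeated genes. The marks usually exclude each other on the same nucleosome, but both can be recovered from a place where the alleles, the copies of a repeat or the cells differ. These libraries separate neither alleles nor cells.

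Some sites lay on annotated starts, either of protein-coding genes away from their outer ends or of long non-coding RNA genes. There were 134 joint regions (sites of both treatments merged where they overlapped or touched, 2907 in all) that overlapped a RefSeq promoter window of the assembly GRCm38.p6, which runs from 250 bases before to 50 after an annotated start. The 6 windows below show the kinds of start found, written 5′ to 3′ on the strand of the gene with each CG dinucleotide in capitals. The first 3 are CG-rich starts with H3K9me3 peaks in both treatments, Igf2 is an imprinted gene, LOC115490388 is a long non-coding RNA gene near the start of its chromosome, and the Sp140 start was listed in LPS only.
Larp1, chr11:58008814-58009113, + strand: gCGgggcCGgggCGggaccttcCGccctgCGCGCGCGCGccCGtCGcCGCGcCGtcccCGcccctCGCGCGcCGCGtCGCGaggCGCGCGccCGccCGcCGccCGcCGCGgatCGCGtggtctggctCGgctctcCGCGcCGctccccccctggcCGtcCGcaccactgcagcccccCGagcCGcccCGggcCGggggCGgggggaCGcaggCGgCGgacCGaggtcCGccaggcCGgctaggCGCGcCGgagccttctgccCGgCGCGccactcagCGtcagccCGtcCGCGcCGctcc
Enah, chr1:182019931-182020230, - strand: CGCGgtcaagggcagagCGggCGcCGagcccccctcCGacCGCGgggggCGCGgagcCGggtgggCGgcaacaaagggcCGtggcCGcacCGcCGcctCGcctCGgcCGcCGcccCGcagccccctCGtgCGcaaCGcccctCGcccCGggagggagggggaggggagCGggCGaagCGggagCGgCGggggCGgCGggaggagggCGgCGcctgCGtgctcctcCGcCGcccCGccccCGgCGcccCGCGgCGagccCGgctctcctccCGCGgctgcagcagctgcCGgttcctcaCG
Runx3, chr4:135152295-135152594, + strand: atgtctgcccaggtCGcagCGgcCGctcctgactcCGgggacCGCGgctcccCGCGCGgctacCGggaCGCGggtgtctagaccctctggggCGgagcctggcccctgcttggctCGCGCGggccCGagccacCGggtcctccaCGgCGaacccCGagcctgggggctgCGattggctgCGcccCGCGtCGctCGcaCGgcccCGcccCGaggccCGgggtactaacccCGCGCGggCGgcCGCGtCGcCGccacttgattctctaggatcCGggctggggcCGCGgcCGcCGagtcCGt
Igf2, chr7:142658755-142659054, - strand: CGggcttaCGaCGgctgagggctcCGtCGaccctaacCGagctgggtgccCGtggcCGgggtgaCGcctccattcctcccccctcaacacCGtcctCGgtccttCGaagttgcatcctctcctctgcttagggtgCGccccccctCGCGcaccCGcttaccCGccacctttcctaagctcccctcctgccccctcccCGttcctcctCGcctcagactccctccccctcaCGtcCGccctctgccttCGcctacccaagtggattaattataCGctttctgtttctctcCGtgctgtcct
LOC115490388, chr6:3182866-3183165, + strand: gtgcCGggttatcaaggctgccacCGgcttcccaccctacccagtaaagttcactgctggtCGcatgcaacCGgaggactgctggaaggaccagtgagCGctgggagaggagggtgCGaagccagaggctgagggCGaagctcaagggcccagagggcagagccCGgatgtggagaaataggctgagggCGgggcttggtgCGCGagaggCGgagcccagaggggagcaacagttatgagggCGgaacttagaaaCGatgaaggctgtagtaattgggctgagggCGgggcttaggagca
Sp140, chr1:85600453-85600752, + strand: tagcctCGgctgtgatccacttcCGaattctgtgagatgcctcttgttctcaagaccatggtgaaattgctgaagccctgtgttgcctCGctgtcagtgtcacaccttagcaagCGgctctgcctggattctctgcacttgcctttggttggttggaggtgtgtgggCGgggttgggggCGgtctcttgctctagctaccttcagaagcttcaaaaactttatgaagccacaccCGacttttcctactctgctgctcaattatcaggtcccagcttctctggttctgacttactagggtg

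The Larp1 window held 61 CG dinucleotides, Enah 49, Runx3 45, Igf2 24, LOC115490388 15 and Sp140 7. The median over all 32619 windows of the table was 7, and only 0.0613% of windows held as many as Larp1.

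H3K9me3 peaks away from genes met H3K4me3 in 18.6% of cases in LPS (2281 of 12234, exact 95% interval 18.0 to 19.3) and in 10.8% in PBS (1589 of 14757, 10.3 to 11.3). The intervals given for shares and for single ratios are Clopper-Pearson intervals and cover counting error only. Within 5 kb of a gene end the share was 70.3% of 5054 peaks in LPS and 61.5% of 4405 in PBS. The difference between treatments had a part from each mark's list, since LPS H3K9me3 peaks met the PBS H3K4me3 list in 14.6% of cases and PBS H3K9me3 peaks met the LPS H3K4me3 list in 13.2%. Both of these values lay between those of the lists of the same treatment, although the H3K4me3 list was longer in PBS (14498 peaks away from genes) than in LPS (12373).

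The marks lay on top of each other at most sites. The H3K9me3 peak was wholly inside a single H3K4me3 peak at 79.9% of LPS sites (78.2 to 81.5) and 75.5% of PBS sites (73.3 to 77.6). Its summit, the position of highest pile-up, was inside the H3K4me3 peak at 96.8% of LPS sites and 96.5% of PBS sites. The median distance between the 2 summits was 73 bp in LPS (quartiles 21 and 194) and 75 bp in PBS (22 and 219). Overlaps of under 50 bp accounted for 20 LPS sites and 16 PBS sites, so contacts at the very edge of a peak were rare.

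Sites of both marks were the stronger H3K9me3 peaks. LPS sites held a median of 26 tags, against 16 for the other LPS H3K9me3 peaks away from genes, and PBS sites 29, against 15. The median width of LPS sites was 326 bp, against 240 bp for the others, and that of PBS sites 331 bp, against 234 bp. Per kb of peak the gap was smaller, with medians of 75.2 tags per kb at LPS sites, against 66.7 at the others, and 78.1 at PBS sites, against 67.2. The sites held 25.1% of all tags in H3K9me3 peaks in LPS and 20.7% in PBS.

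The share of H3K9me3 peaks that met H3K4me3 climbed with the tags in the peak. Of LPS peaks with under 15 tags, 7.40% met H3K4me3 (6.58 to 8.28), and of those with 100 or more, 78.4% did (71.9 to 83.9). In PBS the same classes gave 3.55% (3.08 to 4.07) and 78.6% (72.2 to 84.2). The treatments differed beyond their counting intervals in the 4 classes up to 49 tags, and the intervals overlapped in the classes of 50 to 99 and of 100 or more. By tags, the higher LPS share was thus clear of counting error only up to 49 tags. It was not confined to peaks of low score. At an H3K9me3 score of 100 or more, 55.6% of LPS peaks met H3K4me3, against 41.6% of PBS peaks.

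**Figure D1:**
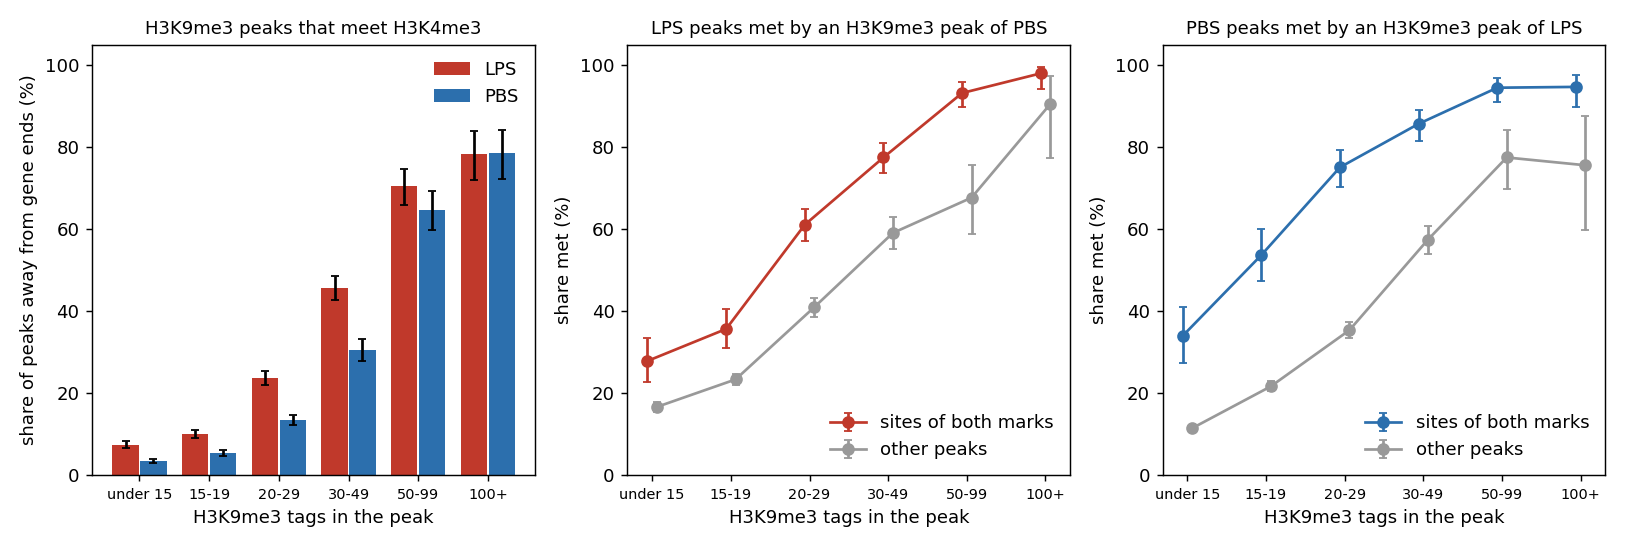
The left panel plots the share of H3K9me3 peaks away from gene ends that met H3K4me3 by class of H3K9me3 tags, for LPS and PBS, and the other panels plot the share of LPS and of PBS peaks met by any H3K9me3 peak of the other treatment. Bars and points are shares in percent with exact 95% intervals; the share of sites climbs to 78.4% (LPS) and 78.6% (PBS), and sites of both marks lie above other peaks in every class.

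H3K4me3 peaks under the sites held about as many tags as other H3K4me3 peaks away from genes, with somewhat higher scores. The LPS median under sites was 38 tags, against 37 for the rest, and the PBS median 41, against 42. The upper quartile was higher at the sites, at 78.75 LPS tags, against 64 for the rest, and 103 PBS tags, against 74. The authors' score had a median of 89.09 under LPS sites, against 71.63 for the other LPS peaks, and 89.22 under PBS sites, against 81.27. Of H3K4me3 peaks away from genes, 16.8% in LPS and 9.86% in PBS held a site.

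Per kb and per filtered tag, H3K9me3 stood above H3K4me3 at the typical site, with a median log2 ratio of 0.44 in LPS (quartiles 0.13 and 0.68) and 0.63 in PBS (0.28 and 0.88). The widths called for each mark enter this ratio, and H3K4me3 peaks were wider than the site at 95.6% of LPS sites and 94.1% of PBS sites. Peaks away from genes that were not sites differed in the same direction. Their medians were 66.7 (LPS) and 67.2 (PBS) tags per kb for H3K9me3, against 53.4 and 58.5 for H3K4me3. The ratio is thus not a trait of the sites alone and does not compare the amounts of the marks. Across sites, tags per kb of the 2 marks had a Spearman rank correlation of 0.26 in LPS and 0.25 in PBS. Among sites with 100 or more H3K9me3 tags it was 0.85 in each treatment (152 LPS sites and 151 PBS sites), and below 100 tags it was 0.18 in LPS and 0.14 in PBS. Sites share a library, a caller and local mappability, so these values describe the lists and carry no test.

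H3K9me3 at the sites was found again in the other treatment more often than at other peaks. Of LPS sites, 62.9% (60.9 to 64.9) were met by some H3K9me3 peak of PBS, against 27.5% (26.6 to 28.4) of the other LPS peaks away from genes and 34.1% of all of them. Of PBS sites, 73.9% (71.6 to 76.0) were met by an LPS peak, against 23.0% of the others (22.3 to 23.8) and 28.5% of all. H3K9me3 peaks with H3K4me3 within 5 kb of a gene end lay between, at 44.6% in LPS and 57.4% in PBS, so a higher share is not particular to places away from genes. Sites lay above other peaks in each of the 6 classes of tags in both treatments, with intervals that overlapped only for LPS peaks of 100 or more tags. With 20 to 29 tags, for example, 61.1% of LPS sites were met, against 41.0% of other LPS peaks, and 75.1% of PBS sites were met, against 35.4% of other PBS peaks. Sites were chosen by a peak in a second library, that of H3K4me3, and the part of this choice in the shares was not tested.

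The H3K4me3 peaks under the sites behaved differently in the 2 lists. In LPS 59.5% of them were met by an H3K4me3 peak of PBS, against 63.9% of other H3K4me3 peaks away from genes and 63.1% of all. In PBS 73.4% were met by an LPS peak, against 51.5% of the others and 53.6% of all.

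Both marks together were found in both treatments at fewer places. Of LPS sites, 914 (40.1%) met a PBS site, and of PBS sites, 931 (58.6%) met an LPS site. Of the 2907 joint regions, 882 (30.3%) held sites of both treatments, 1367 (47.0%) of LPS only and 658 (22.6%) of PBS only. Regions held in both treatments had medians of 43 (LPS) and 40.5 (PBS) H3K9me3 tags, against 21 LPS tags in regions of LPS only and 20 PBS tags in regions of PBS only.

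Most regions held in a single treatment lacked a single mark, not both, in the other lists. Of the 1367 LPS regions, 514 (37.6%) had an H3K9me3 peak but no H3K4me3 peak in PBS, 435 (31.8%) had H3K4me3 but no H3K9me3, 411 (30.1%) had neither, and 7 had both without contact. Of the 658 PBS regions, 239 (36.3%) had H3K9me3 but no H3K4me3 in LPS, 235 (35.7%) H3K4me3 but no H3K9me3, 180 (27.4%) neither and 4 both without contact. The 3 main outcomes took similar shares in the 2 directions. Of all LPS peaks away from genes, 34.1% for H3K9me3 and 63.1% for H3K4me3 were met by a PBS peak of the same mark. Of all such PBS peaks, 28.5% and 53.6% were met by an LPS peak. Absence of a mark from the other list was thus common among all peaks away from genes. A region missing from a list was below the caller's threshold there, which is not a level of 0.

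**Figure D2:**
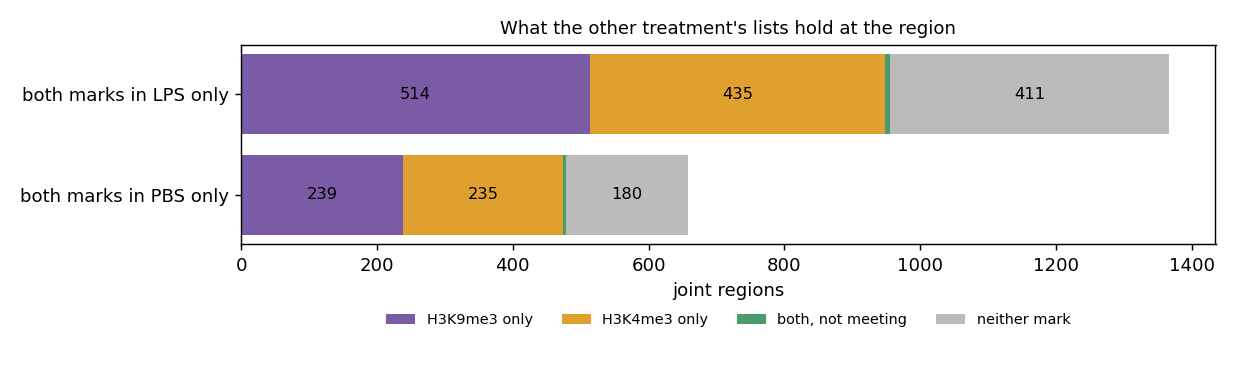
Bars count joint regions with both marks in LPS only (1367, above) and in PBS only (658, below), split by what the lists of the other treatment held there. H3K9me3 alone, H3K4me3 alone and neither mark each took between 27.4% and 37.6% of the regions in both directions.

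A few sites held many of the tags. The 10 strongest took 18.3% of the H3K9me3 tags of all LPS sites and 22.1% of those of all PBS sites. The strongest, chr14:19415679-19419743, lay 113957 bp from Gm2244, its nearest protein-coding gene, in no annotated gene. It held 4959 (LPS) and 5269 (PBS) H3K9me3 tags, and 3982 (LPS) and 4294 (PBS) H3K4me3 tags. All 4 libraries were thus high there, and the log2 ratio of LPS to PBS, in tags per filtered tag, was -0.13 (-0.19 to -0.075) for H3K9me3 and 0.041 (-0.021 to 0.10) for H3K4me3.

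The second, chr17:39842904-39848853, lay over AY036118, a long non-coding RNA gene, and Rn18s-rs5, a pseudogene related to 18S ribosomal RNA. It held 4328 (LPS) and 4111 (PBS) H3K9me3 tags and 3275 (LPS) and 3123 (PBS) H3K4me3 tags. The third, chr13:119595499-119603616, lay inside Tmem267, which encodes a membrane protein, with 3043 (LPS) and 3070 (PBS) H3K9me3 tags and 2415 (LPS) and 2535 (PBS) H3K4me3 tags. The fourth, chr17:13550398-13553328, lay in the long non-coding RNA gene 2700054A10Rik, and the fifth, chr2:98666156-98667456, more than 1000 kb from its nearest protein-coding gene, Lrrc4c. These held 2279 and 1775 H3K9me3 tags in LPS and 2256 and 1787 in PBS.

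The same 5 regions also held the most H3K4me3 tags. The H3K9me3 tags filled 61.0% (LPS) and 64.9% (PBS) of the countable positions at the chromosome 14 region and 73.8% (LPS) and 68.7% (PBS) at the chromosome 2 region. At most 1 tag was kept for each position and strand, so counts there lie near a ceiling and differences would be compressed. No input or control library was used here, and whether such pile-ups belong to the mark or to repeated sequence was not tested. Among the 16 regions with sites of both treatments and at least 1000 H3K9me3 tags over both libraries, log2 ratios ran from -0.21 to 0.46 for H3K9me3 and from -0.17 to 0.76 for H3K4me3.

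A tRNA cluster carried both marks in both treatments. The region chr1:171078745-171082265 covers 5 tRNA genes (n-TDgtc6, n-TEctc7, n-TGgcc14, n-TGtcc4 and n-TLcag8), which RNA polymerase III transcribes, and lies 12830 bp from Fcgr3, the gene of an IgG receptor of macrophages. It held 634 (LPS) and 485 (PBS) H3K9me3 tags and 1509 (LPS) and 1174 (PBS) H3K4me3 tags. The log2 ratio was 0.34 (0.17 to 0.52) for H3K9me3 and 0.51 (0.40 to 0.62) for H3K4me3. Per covered kb the H3K4me3 ratio was -0.11, since the LPS peak covered 7477 bp and the PBS peak 4868 bp.

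Over joint regions with a peak of the mark in both lists, LPS and PBS were near level. The median log2 ratio of H3K9me3 was 0.031 (quartiles -0.26 and 0.37, 1646 regions), beside -0.044 over all 4069 H3K9me3 regions away from genes. That of H3K4me3 was -0.020 (quartiles -0.28 and 0.28, 1563 regions), beside -0.18 over all 7638 H3K4me3 regions away from genes. The sign of both medians depended on the scaling: per total tag they were 0.081 and 0.082, and per covered kb -0.022 and 0.018. Over the 882 regions with sites of both treatments, the H3K4me3 median was 0.080 per filtered tag and 0.060 per covered kb. The H3K9me3 median there was 0.034 per filtered tag and -0.003 per covered kb.

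Few regions with at least 100 tags over both libraries differed 2-fold. For H3K9me3, 18 of 451 joint regions (3.99%) stood 2-fold or more above PBS in LPS and 7 (1.55%) 2-fold or more below it, beside 3.71% and 2.23% of all H3K9me3 regions away from genes. For H3K4me3, 28 of 910 (3.08%) stood 2-fold or more above and 11 (1.21%) 2-fold or more below, beside 1.22% and 4.70% of all H3K4me3 regions away from genes. The H3K9me3 shares were near those of all regions. The H3K4me3 counts of 2-fold differences leaned to LPS at the sites and to PBS over all regions. The median log2 ratio of the same 910 regions was -0.15, toward PBS, as was that of all regions, at -0.26. Of the 910 regions, 440 held sites of both treatments, and their median was near level, at -0.017. Neighbouring joint regions under 1 H3K4me3 peak carry the same tags and are not independent. Per covered kb, 2-fold differences were nearly gone. For H3K9me3, 2 regions stood above and 5 below of 1646, and for H3K4me3 1 above and 3 below of 1563. Over all 4069 H3K9me3 regions away from genes, 3 stood above and 6 below. Called peaks have much the same density, with quartiles of 63.1 and 72.2 tags per kb at LPS H3K9me3 peaks away from genes that were not sites. The scale per covered kb thus leaves little room for a 2-fold difference. It cannot tell a difference in level from one in the width called.

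**Figure D3:**
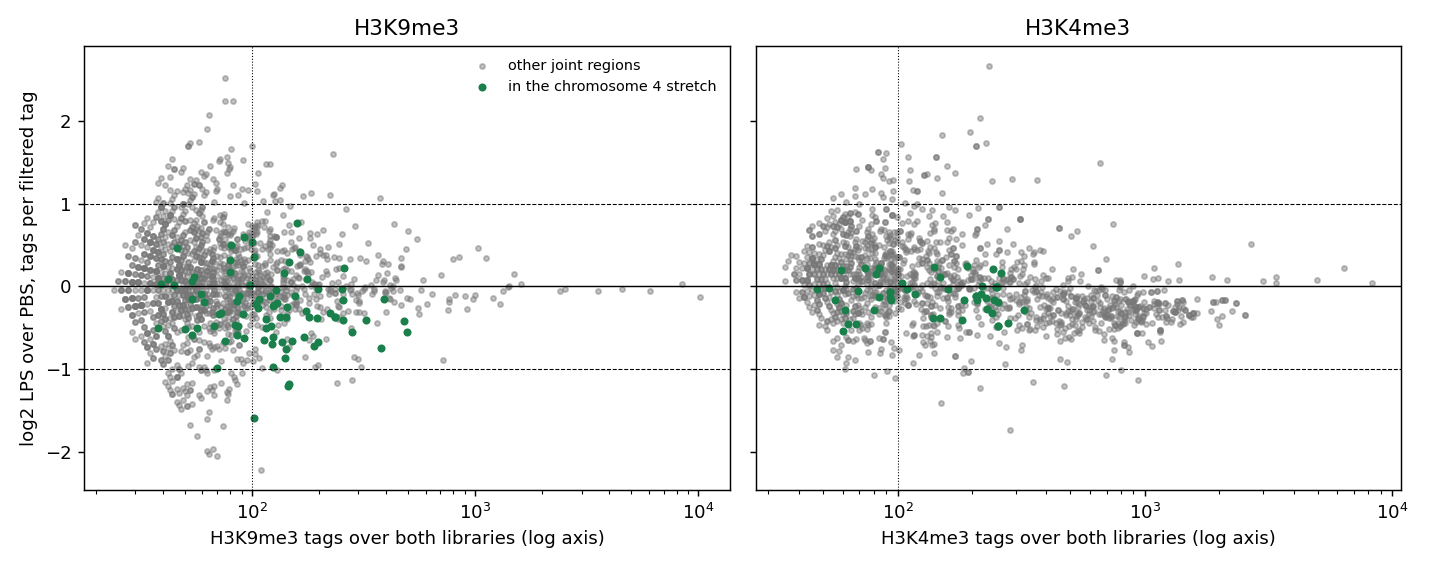
Each point is a joint region with a peak of the mark in both lists, plotted by its tags over both libraries (log axis) and its log2 ratio of LPS to PBS in tags per filtered tag. Dashed lines mark 2-fold and the dotted line 100 tags. Green points, the stretch of chromosome 4 with the most regions, lie mostly below 0 for H3K9me3, where 19 of 83 are higher in LPS.

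Among joint regions with at least 100 tags of the mark over both libraries, the highest H3K9me3 ratios lay near Lipg, the gene of endothelial lipase, near Prox1, a homeobox factor of lymphatic endothelium, and in Ahdc1, an AT-hook protein gene. The region near Lipg on chromosome 18, 57726 bp from that gene, had 77 LPS and 23 PBS tags (log2 ratio 1.70, 1.01 to 2.44). The region near Prox1, chr1:190302966-190303508, lay 132139 bp from it and had 175 LPS and 56 PBS tags (1.60, 1.16 to 2.06). This region was a site in PBS only, since no LPS H3K4me3 peak lay there. The region in Ahdc1, chr4:133038563-133039495, had 89 LPS and 31 PBS tags (1.48, 0.87 to 2.12), while its H3K4me3 was level, at 375 LPS and 417 PBS tags (-0.003, -0.21 to 0.20). Per covered kb the 3 H3K9me3 ratios were 0.17, -0.28 and 0.51.

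With the same minimum of 100 tags, the lowest H3K9me3 ratio lay in Ctnnb1, the gene of beta-catenin. At chr9:120950430-120950736 there were 20 LPS and 90 PBS tags (-2.21, -2.99 to -1.50), and the ratio stayed at -2.02 per covered kb, the only one of the 6 that kept its size. H3K4me3 had 117 tags in LPS there and no PBS peak. The next lay on chromosome 4, over the pseudogene Smarca5-ps near Gm42346 (26 LPS and 76 PBS tags, -1.59, -2.29 to -0.93) and near the zinc finger gene Zfp992 (45 LPS and 100 PBS tags, -1.20, -1.74 to -0.67). Per covered kb these came to 0.005 and -0.075.

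With at least 100 H3K4me3 tags, the highest H3K4me3 ratio lay near Cdyl2, which encodes a chromodomain protein. The region chr8:116559194-116562427 had 199 LPS and 35 PBS H3K4me3 tags (2.66, 2.13 to 3.22), and 484 LPS and 367 PBS H3K9me3 tags (0.36, 0.16 to 0.55). The next were 48279 bp from Jak1, a kinase of cytokine receptors (170 LPS and 46 PBS H3K4me3 tags, 2.04, 1.56 to 2.54), and in Rab10os, antisense to the GTPase gene Rab10 (151 LPS and 46 PBS tags, 1.86, 1.38 to 2.37). At both, H3K9me3 was higher in LPS as well, with 58 LPS and 20 PBS tags near Jak1 (1.49, 0.74 to 2.30) and 116 LPS and 53 PBS tags in Rab10os (1.09, 0.61 to 1.58). Per covered kb the 3 H3K4me3 ratios were 0.51, 0.56 and 0.17.

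With the same minimum, the lowest H3K4me3 ratios lay in Gm7592, in Arhgap10, a GTPase-activating protein gene, and in Maneal near Yrdc, a tRNA modification gene. The region in Gm7592, chr1:85339608-85340662, had 61 LPS and 225 PBS H3K4me3 tags (-1.73, -2.17 to -1.32) and, in the other direction, 113 LPS and 70 PBS H3K9me3 tags (0.65, 0.20 to 1.10). The region in Arhgap10 had 38 LPS and 112 PBS tags (-1.41, -1.98 to -0.87), and that in Maneal 60 LPS and 156 PBS tags (-1.23, -1.68 to -0.79), both with an H3K9me3 peak in PBS only. Per covered kb the 3 ratios were -0.21, -0.58 and -0.44.

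Some strong sites were listed in a single treatment. Beside the tRNA cluster, chr1:171083064-171084709 had 265 LPS and 202 PBS H3K9me3 tags, and the wide LPS H3K4me3 peak of 1509 tags reached it while no PBS peak did. In the genes of the nuclear body proteins Sp110 and Sp140, chr1:85599822-85601417, over the Sp140 start printed above, had 258 H3K9me3 and 619 H3K4me3 tags in LPS and no peak of either mark in PBS. A further region in Sp140, chr1:85624220-85626013, had 258 LPS and 461 PBS H3K9me3 tags, and 240 H3K4me3 tags in LPS without a PBS peak.

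Among the PBS sites, chr2:98663551-98664113 had 490 LPS and 511 PBS H3K9me3 tags and 403 H3K4me3 tags in PBS alone. In C130026I21Rik, chr1:85246787-85248431 had 258 LPS and 299 PBS H3K9me3 tags and 160 H3K4me3 tags in PBS alone. At chr16:3233377-3235196, far from any protein-coding gene, H3K9me3 was listed in PBS only (213 tags) and H3K4me3 in both (132 LPS and 201 PBS tags). Only the Sp110 and chromosome 16 regions of these 6 lacked an H3K9me3 peak in the other treatment.

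**Figure D4:**
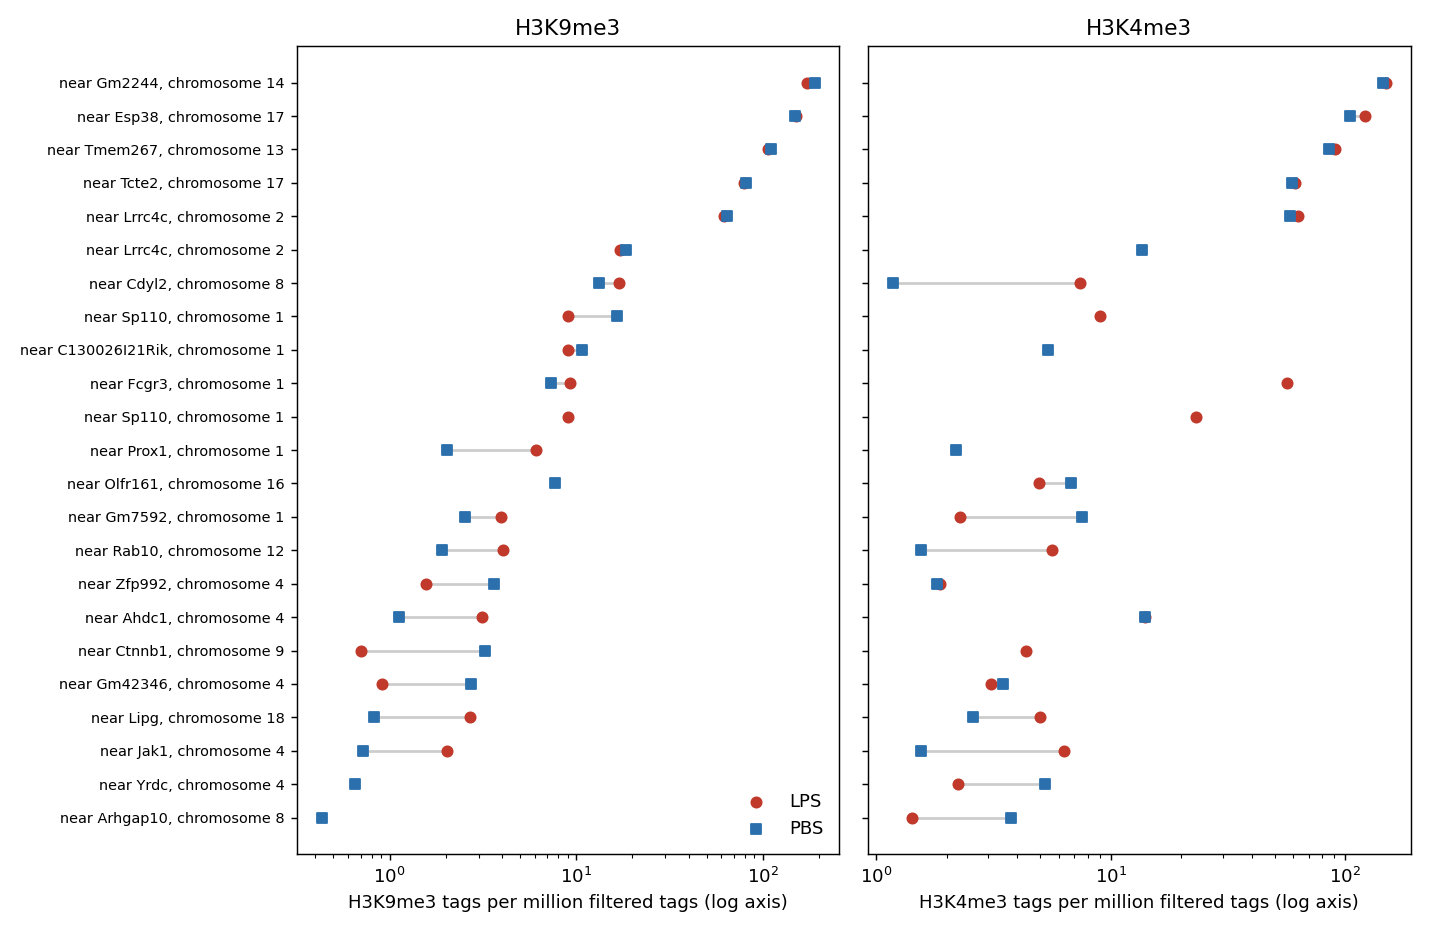
Points give tags scaled to 1000000 filtered tags (log axis) in LPS and PBS for H3K9me3 (left) and H3K4me3 (right) at the regions named in the text by tags, ratio or treatment, labelled by the nearest protein-coding gene and ordered by H3K9me3 tags. A missing point means that the list holds no peak there; the 5 strongest regions have nearly the same level in both treatments, and the regions chosen for a high or low ratio lie apart by that choice.

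Most joint regions stood alone, and a minority lay in clusters. With gaps of up to 100 kb the 2907 regions fell into 2122 clusters, of which 1672 were single regions, and 162 regions lay in clusters of 10 or more. The largest, chr8:20259189-20704889, held 33 regions around Gm15319, Gm40469 and Gm21119, and 70.7% (LPS) and 68.3% (PBS) of its H3K9me3 peaks away from genes were sites. The next 2 lay on chromosome 4. The cluster chr4:146909331-147634297 held 32 regions among 8 protein-coding genes, of which 7 were zinc finger genes (Zfp993, Zfp978, Zfp991, Zfp988, Zfp982, Zfp985 and Zfp979) beside Rex2. The cluster chr4:146430667-146740217 held 23 regions among Zfp992, Zfp981 and Zfp993. Zinc finger genes of this kind are themselves repeated families and are known carriers of H3K9me3. Neighbouring copies are alike in sequence, so reads of a copy can be placed on another, and the regions of a cluster are not independent.

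The median H3K9me3 ratio was below 0 in each of these clusters, though regions on chromosome 8 went both ways. The median log2 ratio was -0.22 on chromosome 8 (25 regions with a ratio, 11 of them higher in LPS). It was -0.33 in the Zfp993 to Zfp979 cluster (29 regions, 5 higher in LPS) and -0.37 in the Zfp992 cluster (21 regions, 5 higher in LPS). Per covered kb these medians were smaller, at -0.13, -0.24 and -0.16. Median H3K9me3 tags per region were 54 in LPS and 58 in PBS on chromosome 8, 49 and 58.5 in the Zfp993 to Zfp979 cluster, and 54 and 80 in the Zfp992 cluster. With gaps of up to 1000 kb the chromosome 4 clusters joined into chr4:143981290-147842276, with 94 regions. There the median H3K9me3 ratio was -0.33 (quartiles -0.55 and -0.038), with 19 of 83 regions higher in LPS, and it was -0.28 per total tag and -0.18 per covered kb. Over all joint regions 871 of 1646 were higher in LPS. The shift was not particular to chromosome 4. Over all 162 regions in clusters of 10 or more the median H3K9me3 ratio was -0.29, with 34 of 133 higher in LPS. In the cluster chr1:84962374-85346072 it was -0.30, with 2 of 15 regions higher in LPS. H3K4me3 in the chromosome 4 stretch had a median ratio of -0.12 over 48 regions, -0.014 per total tag and 0.014 per covered kb.

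Zinc finger genes were the nearest protein-coding gene of 4.78% of LPS sites and 5.79% of PBS sites, against 3.21% of other LPS peaks and 2.98% of other PBS peaks away from genes. These were 109 LPS and 92 PBS sites. The chromosome 4 stretch, with its many zinc finger genes, held 70 LPS and 74 PBS sites that are not independent. The shares without that stretch were not computed. Olfactory and vomeronasal receptor genes, which also form large repeated families, were nearest to 1.53% of LPS sites and 2.58% of PBS sites, against 1.95% and 2.76% of the other peaks. Clustered protocadherin genes were nearest to 0 sites, and to 0 of the other LPS peaks and 5 of the other PBS peaks (0.0380%).

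Gene bodies held 43.4% of LPS sites and 43.7% of PBS sites, against 34.0% (LPS) and 30.9% (PBS) of other H3K9me3 peaks away from genes. In all 1019 protein-coding gene bodies held a site, and 137 held 3 or more over both lists. The 7 with at least 3 in each list, a narrower group chosen after the values were seen, were Zfp993 (10 in LPS and 14 in PBS), Zfp978 (11 and 10), Gm7592 (3 and 6), Hdac9, a class IIa histone deacetylase (3 and 4), and, with 3 in each, Celf2, an RNA-binding protein, Cep128, a centrosomal protein, and Tiam1, an exchange factor of Rac.

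Sites over annotated starts were few but rarely shared by other H3K9me3 peaks. Windows of protein-coding genes were overlapped by 67 LPS sites (2.94%) and 52 PBS sites (3.27%), against 5 (0.0502%) and 7 (0.0532%) of the other H3K9me3 peaks. Windows of long non-coding RNA genes were overlapped by 1.67% of LPS and 1.07% of PBS sites, against 0.231% and 0.273% of the others. H3K4me3 peaks lie at starts by nature, and requiring one selects them. Set against H3K4me3 peaks away from genes, 133 of 2084 LPS peaks that held a site (6.38%) overlapped a protein-coding window, against 5.39% of those without, and 100 of 1429 PBS peaks did, against 5.08%. For windows of long non-coding RNA genes the direction was reversed in this comparison in both treatments. In PBS 2.87% of H3K4me3 peaks that held a site overlapped such a window, against 4.34% of those without. In LPS 59 of 2084 did, against 453 of 10289.

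The starts under sites were richer in CG than other starts with H3K4me3 away from gene ends. The 151 windows under joint regions had a median of 29 CG dinucleotides and 70.7% G and C, against 10 and 56.3% in 1513 windows under other H3K4me3 peaks away from genes. Windows with 20 or more CG made up 76.8% of the 151, against 26.2% of the 1513 and 26.7% of all windows. The letters GGGCGG, the core bound by Sp1 factors, occurred on either strand in 79.5% of the windows under joint regions, against 43.4% of the 1513 and 35.9% of all, and each match itself holds a CG. TATAAA occurred in 1.99%, against 7.67% and 13.7%. GAGGAAGT, a core of PU.1, the factor encoded by Spi1, occurred in 0.662%, against 4.16% and 3.22%. None of the 3 motifs holds another, and a match is a description of these letters. The 151 windows overlapped a joint region, made of H3K9me3 peaks, whereas the 1513 needed to overlap only an H3K4me3 peak. The sets were not matched for peak width, H3K4me3 tags or kind of gene, and the part of these in the gaps was not tested.

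**Figure D5:**
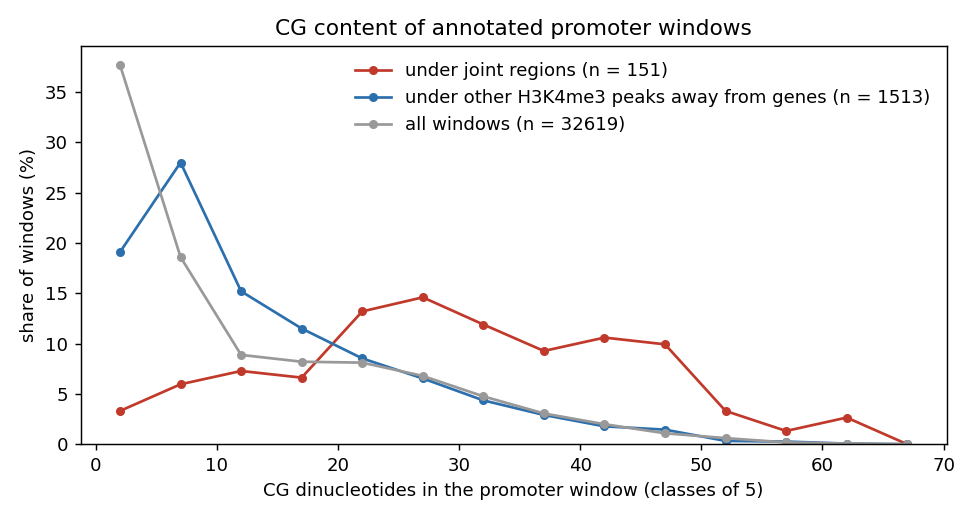
Lines give the share of promoter windows (percent) by the number of CG dinucleotides in classes of 5, for windows under joint regions, windows under other H3K4me3 peaks away from genes and all windows of the table. Windows under joint regions peak near 29 CG, their median, whereas the others have medians of 10 and 7.

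At these starts H3K9me3 was like that of other joint regions and H3K4me3 was stronger. Over the 134 regions, where listed, LPS H3K9me3 had a median of 26 tags and PBS H3K9me3 one of 24, and over all joint regions these medians were 26 (LPS) and 28 (PBS). LPS H3K4me3 had a median of 250 tags at the starts and PBS H3K4me3 one of 354, while all joint regions had 41 (LPS) and 48 (PBS). At Larp1, which encodes an RNA-binding protein that controls translation, there were 91 LPS and 64 PBS H3K9me3 tags, and 569 LPS and 751 PBS H3K4me3 tags. At Enah, an actin regulator, there were 97 LPS and 76 PBS H3K9me3 tags and 425 LPS and 507 PBS H3K4me3 tags. At Runx3, a runt-family transcription factor of blood cells, there were 52 LPS and 53 PBS H3K9me3 tags and 357 LPS and 439 PBS H3K4me3 tags. In tags per filtered tag the H3K4me3 log2 ratio was -0.25 at Larp1, -0.10 at Enah and -0.15 at Runx3.

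H3K4me3 over the starts had a median log2 ratio of -0.26 (quartiles -0.41 and -0.15), with 13 of 120 regions higher in LPS, and it was -0.16 per total tag and -0.13 per covered kb. All 4339 H3K4me3 regions away from genes with 100 or more tags also had a median of -0.26. H3K9me3 had a median ratio of 0.074 over 46 regions, 26 of them higher in LPS, and its sign changed per covered kb (-0.024). Both marks were listed in both treatments at 42 of the 134 regions. Further starts with both marks in both treatments were those of Hdac7, a class IIa histone deacetylase (28 LPS and 29 PBS H3K9me3 tags), and Celf2 (13 LPS and 40 PBS). At Cbfa2t3, a corepressor gene of blood cells, and Foxp1, a forkhead factor gene, H3K9me3 was listed in LPS only (33 and 20 tags), and at Il1r1, the interleukin 1 receptor gene, in PBS only (23 tags). These genes were picked after their values were seen.

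Imprinted genes were the nearest gene of 13 LPS sites (0.570%) and 8 PBS sites (0.503%), against 0.181% (LPS) and 0.152% (PBS) of the other peaks. At the control regions of imprinted genes, H3K4me3 is known to sit on the unmethylated parental allele and H3K9me3 on the methylated allele. The sites formed 14 joint regions near 9 of 22 listed genes, 7 of them with sites of both treatments. Counts per region were small, and the number of regions is too low to read a difference between treatments from it.

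At Gnas, the gene of a G protein subunit, 3 regions lay inside the gene. The region chr2:174330344-174330768 lay 338 bp from an annotated start and had 30 LPS and 26 PBS H3K9me3 tags inside an H3K4me3 peak of 832 LPS and 1049 PBS tags. The region chr2:174328341-174328685, 573 bp from another start and under the same H3K4me3 peak, had 27 H3K9me3 tags in LPS and no PBS peak. The third, chr2:174299235-174300015, had 48 LPS and 26 PBS H3K9me3 tags (log2 ratio 0.84, 0.12 to 1.59) and 106 LPS and 76 PBS H3K4me3 tags, with 0.066 for H3K9me3 per covered kb.

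At Airn, the non-coding RNA that silences Igf2r on the paternal allele, chr17:12742210-12742690 lay 899 bp from the annotated start and had 35 H3K9me3 tags in PBS and no LPS peak. Its H3K4me3 was 183 LPS and 311 PBS tags (-0.61, -0.89 to -0.35). At Grb10, an adaptor of growth factor receptors, chr11:12025766-12026507 lay 1464 bp from an annotated start and had 62 H3K9me3 tags in LPS and no PBS peak, with 50 LPS and 77 PBS H3K4me3 tags. Both places were thus sites in a single treatment by the H3K9me3 list.

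At Igf2, the insulin-like growth factor expressed from the paternal allele, chr7:142658880-142659411 overlapped the window printed above and had 26 LPS and 21 PBS H3K9me3 tags and 162 LPS and 214 PBS H3K4me3 tags. Inside Impact, a translational regulator, a region of chromosome 18 had 30 LPS and 37 PBS H3K9me3 tags and 145 LPS and 223 PBS H3K4me3 tags. In Copg2, whose nearest listed gene is Mest, chr6:30804480-30805163 had 93 LPS and 57 PBS H3K9me3 tags (0.66, 0.17 to 1.16), a ratio that was the same per covered kb, with 96 LPS and 108 PBS H3K4me3 tags. In Snhg14, the long host RNA downstream of Snrpn, chr7:59735817-59736630 had 72 H3K9me3 tags in LPS and no PBS peak, with 49 LPS and 89 PBS H3K4me3 tags. The remaining regions lay near Mest, Kcnq1, Cdkn1c and Impact, with 15 to 24 H3K9me3 tags in the lists that held them.

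Few sites had a gene of the macrophage response as their nearest gene. Of 16 inflammatory genes, Il6, Il1b and Cxcl10 were the nearest gene of 5 LPS sites (0.219%, against 0.0603% of other LPS peaks) and of 0 PBS sites (against 0.0380% of other PBS peaks). The sites nearest to Il6, which encodes interleukin 6, lay 37375 and 7893 bp from it. These, chr5:29975537-29975739 and chr5:30027868-30028070, had 13 H3K9me3 tags each, and 26 and 24 H3K4me3 tags, in LPS, with no peak of either mark in PBS. Near Il1b, the interleukin 1 beta gene, chr2:129379199-129379469 had 21 H3K9me3 and 35 H3K4me3 tags in LPS and likewise none in PBS. Near Cxcl10, an interferon-induced chemokine, 2 sites inside Art3 had 13 H3K9me3 tags each under a single LPS H3K4me3 peak of 39 tags, and the PBS list held an H3K9me3 peak of 15 tags at the first. The lowest tag counts in the LPS lists were 12 for H3K9me3 and 17 for H3K4me3, and how many PBS tags lay at the places without a PBS peak is not known from the lists. Among 14 interferon-stimulated genes, Gbp5, a guanylate-binding protein, was nearest to 1 LPS site of 15 tags (0.0438%, against 0.0402% of other LPS peaks).

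Among genes that write or bind the marks, Atf7ip, Morc2a and Tasor act with SETDB1 and the HUSH complex in H3K9me3 silencing. Of 15 listed genes of H3K9 methylation, these were nearest to 3 LPS sites (0.132%, against 0.0703% of other LPS peaks, 7 peaks). Atf7ip and Morc2a were nearest to 2 PBS sites (0.126%, against 0.0228% of other PBS peaks, 3 peaks). These counts are also too low to read a difference from. The site in Tasor, chr14:27428912-27429285, had 32 H3K9me3 tags in LPS and no PBS peak, and its H3K4me3 was 235 LPS and 342 PBS tags (-0.39, -0.64 to -0.15). None of 14 H3K4 methylation genes and none of 11 SUN and LINC complex genes, the nuclear envelope proteins that the series is named for, was the nearest gene of a site in either treatment. These genes were also nearest to few of the other peaks, at 0.0100% (LPS) and 0.0228% (PBS) for H3K4 methylation and 0.0603% (LPS) and 0.0380% (PBS) for SUN and LINC, so a count of 0 sites is near the background. Of the Hox genes, which pattern the body axis, Hoxa13 was nearest to 2 LPS sites and 1 PBS site, and Hoxd3 to 1 PBS site. This made 0.0877% of LPS sites, against 0.0502% of other LPS peaks (5 peaks). It made 0.126% of PBS sites, against 0.00759% of other PBS peaks (1 peak). Such counts are too low to read a difference from. At chr6:52252758-52253278 near Hoxa13 there were 36 LPS and 24 PBS H3K9me3 tags and 124 LPS and 85 PBS H3K4me3 tags, with an H3K4me3 ratio of 0.69 (0.29 to 1.11).

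The distance limit cut through like peaks. Just inside it in LPS were sites 5010 bp from Hoxa13 (35 tags) and 5048 bp from Prkce (14 tags), and just outside it H3K9me3 peaks with H3K4me3 4960 bp from Scml4 (35 tags) and from Pitx1 (41 tags). In PBS the nearest inside were 5005 bp from Dedd (17 tags) and 5034 bp from Gm50595 (31 tags), and outside 4953 bp from Gm35315 (36 tags) and 4936 bp from Dgcr6 (16 tags).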

How the data were processed

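Each of the 4 libraries came as a deposited peak list of MACS 1.4.2. The submitters' processing notes also name CASAVA 1.4, Bowtie 0.12.8, DiffBind and mm10. Per the file headers, peaks were called in each library without a control, at a p threshold of 1e-05, keeping at most 1 tag per position, and all deposited positions are those of the authors. The counts of tags per peak, the score (minus 10 times the base 10 logarithm of the p-value) and the ratio of fold enrichment are the authors' values per the file headers.

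Tags were scaled by the filtered tags of each library. Gene ends (21631 protein-coding genes) and promoter windows came from RefSeq tables of GRCm38.p6, the assembly of mm10. Overlaps and distances were computed with Python 3.11.15, pandas 2.3.3 and scipy 1.17.1, checked on simulated peaks, and bedtools 2.31.1 gave the same number of sites. Joint regions sum the tags of every overlapping peak of a mark. With 1 library per group no test was run and no p-value is given. Counts of 2-fold differences use at least 100 tags. Regions were named by rank of tags or of ratio, by treatment and by cluster. The sites, gene lists and named groups were chosen with earlier results of these data known. Intervals cover counting error only, and peaks hold at least 11 tags, so single weak peaks are imprecise.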

Additional observations from a re-analysis of the deposited data

Results flagged for a closer look

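Chromosome Y was outside the chromosomes described above, and both marks also met there. Of 81 H3K9me3 peaks on chromosome Y in LPS, 20 met an H3K4me3 peak, and of 117 in PBS, 19 did. The LPS list held 27 H3K4me3 peaks on this chromosome and the PBS list 30. This value is given because it lies in data that the comparisons did not use, with no library of another kind to set it against.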

How the results depend on the processing

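Of 56 alternative values, 22 stayed within 1.5 times the count or within the interval of the value, 32 moved and 2 changed the sign of a median whose interval excluded 0. The share of H3K9me3 peaks meeting H3K4me3 was higher in LPS under each of the 9 alternatives to it, and the number of sites under each but the H3K4me3 list of the other treatment (1790 LPS and 1949 PBS sites). Values are given for LPS first and PBS second. Leaving out gene bodies gave 1291 and 895 sites, an H3K9me3 score of 100 or more 972 and 787, and an H3K4me3 score of 100 or more 1044 and 734. The share meeting H3K4me3 was 19.6% and 11.6% at 2 kb, 17.9% and 10.3% at 10 kb, 16.4% and 8.95% without gene bodies, 17.2% and 9.89% from the ends of every gene, 14.6% and 13.2% with the H3K4me3 list of the other treatment, 55.6% and 41.6% at an H3K9me3 score of 100, and 8.53% and 4.97% at an H3K4me3 score of 100. The share of sites met by a site of the other treatment was 54.5% and 68.2% at an H3K9me3 score of 100, and 61.2% of PBS sites with gaps of 500 bp. The ratio of median tags, sites over other peaks, was 1.62 and 1.93 as reported, 1.13 and 1.16 per kb, and 1.38 and 1.48 at a score of 100. Between LPS and PBS the median H3K9me3 log2 ratio changed sign to -0.022 per covered kb and -0.0028 with 100 tags or more, and was 0.081 per total tag. For H3K4me3, whose median of -0.020 has an interval that holds 0, it was positive at 0.082 per total tag and 0.018 per covered kb, and it was -0.15 with 100 tags or more. Gaps of 1000 kb gave 811 clusters. The cause of these changes was not tested, apart from the smaller lists that stricter scores and left-out gene bodies make. No paired analysis was possible because each group held 1 library and no result comes from a test. At this depth a peak of 11 to 20 tags can fall on either side of the threshold by counting error alone, so absence from a list is weak evidence of a lower level.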

Other observations

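The sites were unevenly spread over the chromosomes. They made up 22.8% (LPS) and 15.1% (PBS) of the H3K9me3 peaks away from genes on chromosome 4, and 22.6% (LPS) and 16.3% (PBS) on chromosome 8, which hold the largest clusters. Chromosome 18, with 22.7% in LPS, was as high, but had 11.1% in PBS. The lowest shares were 15.1% on chromosome 14 in LPS and 8.40% on chromosome 13 in PBS. Mouse chromosomes carry their centromere at the start, and the assembled sequence begins near position 3000000. The first 500 kb after it held 2.02% of LPS sites and 3.40% of PBS sites, against 0.784% and 0.813% of other H3K9me3 peaks away from genes. The 60 joint regions there included 34 with sites of both treatments (56.7%), against 30.3% of all joint regions, and their median H3K9me3 ratio of LPS to PBS was -0.11, with 13 of 49 higher in LPS.

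Pseudogenes, which often are copies of expressed genes, overlapped 114 of 2281 LPS sites, against 2.68% of other LPS peaks, and 5.66% of PBS sites, against 2.48% of other PBS H3K9me3 peaks away from genes. A pair of miRNA genes lay under joint regions. Mir124a-3, a miRNA gene best known from neurons, had 27 H3K9me3 tags in PBS with no LPS peak, and 276 LPS and 275 PBS H3K4me3 tags. Mir6236 on chromosome 9 had 47 LPS and 37 PBS H3K9me3 tags and 33 LPS and 29 PBS H3K4me3 tags.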
